A study of Mus musculus with 4 samples.

Results

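MEIS, PBX, PKNOX and TGIF proteins are homeobox transcription factors of the TALE class, named for an extended loop of amino acids in the homeodomain. Accessible chromatin at 9 of their genes (Meis1, Meis2, Meis3, Pbx2, Pbx3, Pbx4, Pknox1, Pknox2 and Tgif1) was examined in large peritoneal macrophages (LPMs) of mice with and without myeloid deletion of the retinoid X receptors RXRα and RXRβ. The peaks of 4 libraries were merged where they shared at least 1 bp, and a merged region was taken when one of these genes had the nearest transcription start site (TSS) to its midpoint or when it overlapped the gene body. This gave 49 of the 70744 regions of the series. The nearest TSS placed 43 of them, and 6 were placed by the gene body alone.

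ATAC-seq was used, an assay in which a transposase cuts open DNA and leaves sequencing adaptors there. LPMs were sorted from 9-week-old C57BL/6 mice, 40000 cells for each library. Controls were Rxrab fl/fl littermates without Cre (replicates 1 and 3), and the other group was LysMCre+ Rxrab fl/fl (replicates 1 and 2). These groups are called control and Cre+ from here on, and fold changes are Cre+ over control. Both groups carried floxed Rxra and Rxrb alleles, and the Cre is driven by the LysM gene, which is active in myeloid cells in general and not in LPMs alone. Deletion itself was not checked here. By the study's own statement, libraries that clustered apart from their genotype were dropped, so the spread between those that remain may be understated. Whether the libraries came from separate mice is not stated in the labels, and p values measure the spread between these libraries.

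In general, MEIS and PKNOX proteins bind PBX proteins, which keeps PBX in the nucleus, and the pairs bind DNA alone or together with HOX proteins. MEIS1 and PBX proteins are known for their part in haematopoietic stem cells and, with HOXA9, in myeloid leukaemia. TGIF1 is a repressor that binds SMAD proteins of the TGF-β pathway, and it was first described as a factor that binds a retinoid X receptor response element.

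The libraries differed in yield. Peak lists held 38048 and 16097 peaks in control replicates 1 and 3, and 65421 and 55581 in Cre+ replicates 1 and 2. The tag pileup at a summit was solved from the deposited values. Over regions called in all 4 libraries its median was 97 and 20 tags in control and 99 and 65 tags in Cre+, so control replicate 3 was the shallowest. Sex chromosomes are not in the lists. Promoters of the LPM markers (Adgre1, Timd4, Icam2, Gata6 and 6 others) carried a peak for 9 and 6 of 10 genes in control and for 9 and 9 in Cre+, where Vsig4 is X-linked and could not be called. No T cell or mesothelial marker promoter was called in any library, and 1 of 6 B cell genes (Ebf1) and 1 of 6 mast cell and granulocyte genes (S100a8) were called, both in all libraries but control replicate 3.

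Of the 49 regions, 20 were called in control replicate 1 and 10 in replicate 3, where 52.0% and 21.9% of all regions were called. Cre+ replicates 1 and 2 called 38 and 35 of the 49, against 90.7% and 77.2% of all regions. The mean was 15 regions in control and 36.5 in Cre+ (two-sided exact permutation test, p = 0.33, the smallest that 2 libraries against 2 can give). In each library the share of the 49 that was called lay below the share of all regions, though closely in control replicate 3 (20.4% against 21.9%). This was not tested. Meis1 held 10 of the 49 regions, Pknox1 9 and Tgif1 7, whereas Pbx2 held 1 and Pknox2 3, and each other gene held 4 or 5.

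**Figure D1:**
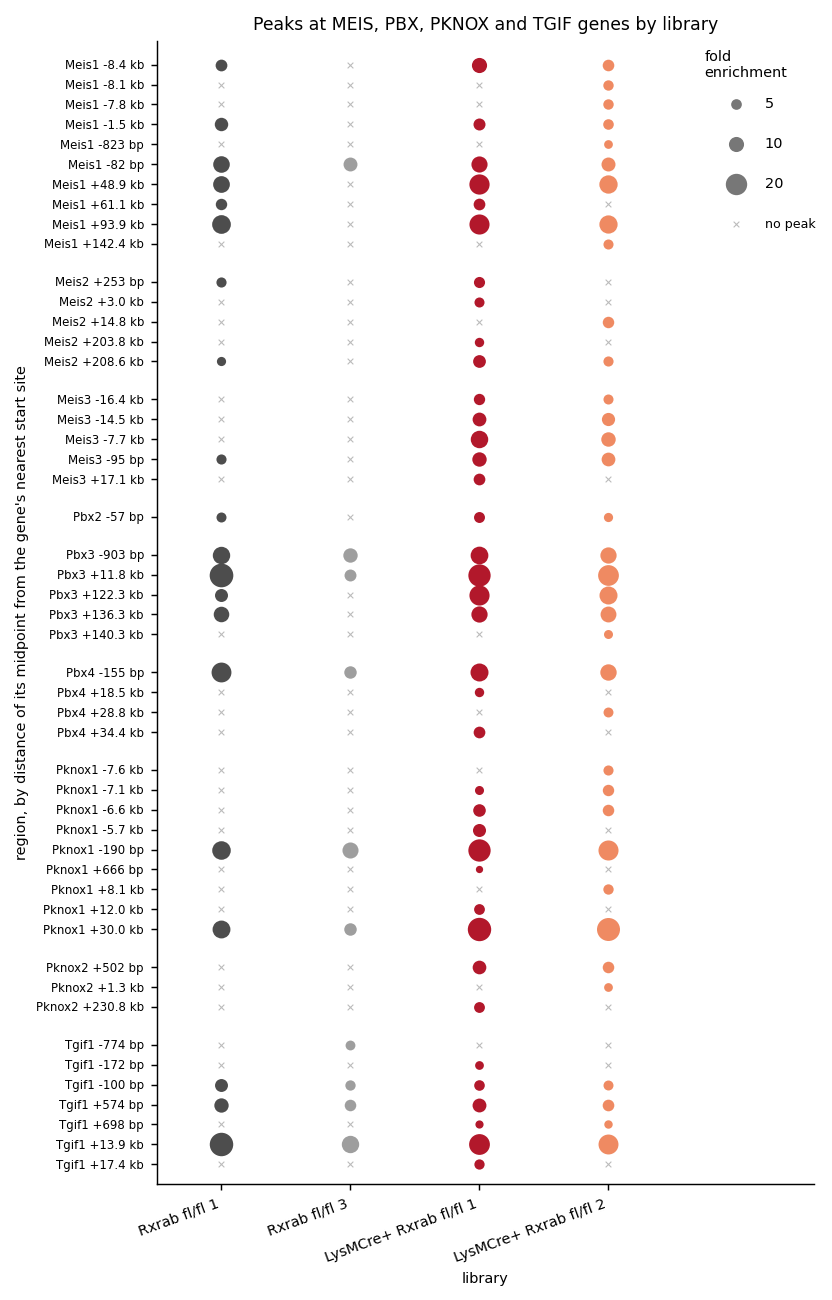
Fold enrichment at the summit of each of the 49 regions (rows, by gene and by distance from the nearest start site of that gene) in the 4 libraries (columns); circle area is proportional to fold enrichment and a cross marks no peak. The start sites of Meis1, Pbx3, Pbx4, Pknox1 and Tgif1 carry circles in all 4 columns, and the control replicate 3 column holds 10 circles.

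All 4 libraries shared 9 of the 49 regions (21.5% of all regions were shared by all). A further 9 were called in every library except control replicate 3 (25.5% of all regions). Both Cre+ libraries and neither control library called 7 (22.8% of all regions), and no region had the opposite pattern, which 0.0452% of all regions showed. One library alone called 22 regions (26.9% of all regions), 11 of them in Cre+ replicate 1, 10 in Cre+ replicate 2 and 1 in control replicate 3. As shares of the 49 these patterns came to 18.4%, 18.4%, 14.3%, 0% and 44.9%. They exclude one another, so that a larger share of calls by 1 library lowers the rest. With 49 regions, a share of 0% beside 0.0452% carries no information, and the other differences from all regions were not tested.

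The promoter-TSS window, which ends 200 bp past a TSS and starts 1 kb before it, held the midpoint of 11 of the 49 regions (22.4%, 95% Wilson interval 13.0 to 35.9%, counting error only), against 18.1% of all regions. Introns held 22 midpoints, intergenic DNA 24, coding exons 2 and a 5′ UTR 1. Over 50 kb from the start site lay 9 regions, all in or beyond the long genes Meis1, Meis2, Pbx3 and Pknox2, and none of these 9 was called in all 4 libraries. The GC content within 100 bp of the summit had a median of 59.2% for the 11 promoter regions and 53.7% for the other 38, where the medians of all regions were 64.7% and 50.2%. The median width was 390 bp for the 11 and 296.5 bp for the 38, against 621 bp and 352 bp for all regions of the same kind.

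Summit windows that the results turn on are shown first, so that each can be set beside its values. They are the strongest Meis1 and Meis3 regions, the Pbx3 and Pknox1 intron regions with the largest differences between genotypes, 1 Pknox1 region called only in Cre+ and the strongest Tgif1 region. That Pknox1 region (3.59 and 5.70) is the only one of the 7 called only in Cre+ that holds TGACAG. The neighbouring Pknox1 region at 6.6 kb (6.95 and 5.81) was stronger and holds no match. Matches are therefore more frequent among the windows shown than among the 49 regions. Each runs 100 bases either side of the summit on the + strand of GRCm38, the same build as mm10, as read from the RefSeq assembly. Capitals mark TGACAG (or CTGTCA on the other strand), the core bound by MEIS and TGIF proteins, and AGGTCA (or TGACCT), the half-site bound by RXR and its partners.
Meis1 intron, 93.9 kb from the start site, chr11:18925012-18925212: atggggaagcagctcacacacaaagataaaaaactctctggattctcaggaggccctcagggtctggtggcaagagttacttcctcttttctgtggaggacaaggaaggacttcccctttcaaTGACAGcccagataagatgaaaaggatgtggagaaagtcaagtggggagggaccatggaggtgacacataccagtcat
Pbx3 intron, 122.3 kb from the start site, chr2:34249612-34249812: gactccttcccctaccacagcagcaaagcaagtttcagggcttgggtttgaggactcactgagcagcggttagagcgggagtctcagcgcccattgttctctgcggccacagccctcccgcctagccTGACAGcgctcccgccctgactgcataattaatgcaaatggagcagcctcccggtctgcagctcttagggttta
Pknox1 intron, 30.0 kb from the start site, chr17:31594683-31594883: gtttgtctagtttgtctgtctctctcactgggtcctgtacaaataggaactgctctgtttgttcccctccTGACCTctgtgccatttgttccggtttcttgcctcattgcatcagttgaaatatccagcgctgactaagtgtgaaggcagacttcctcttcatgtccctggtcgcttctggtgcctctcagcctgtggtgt
Meis3 upstream, 7.7 kb from the start site, chr7:16167551-16167751: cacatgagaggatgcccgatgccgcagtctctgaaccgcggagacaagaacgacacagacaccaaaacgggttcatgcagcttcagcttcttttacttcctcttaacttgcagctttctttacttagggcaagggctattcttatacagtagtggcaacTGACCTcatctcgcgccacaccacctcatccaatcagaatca
Pknox1 upstream, 7.1 kb from the start site, chr17:31557598-31557798: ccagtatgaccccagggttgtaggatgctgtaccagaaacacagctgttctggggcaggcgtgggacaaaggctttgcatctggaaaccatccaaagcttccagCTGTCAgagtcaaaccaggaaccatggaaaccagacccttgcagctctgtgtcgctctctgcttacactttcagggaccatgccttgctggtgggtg
Tgif1 downstream, 13.9 kb from the nearest start site, chr17:70832688-70832888: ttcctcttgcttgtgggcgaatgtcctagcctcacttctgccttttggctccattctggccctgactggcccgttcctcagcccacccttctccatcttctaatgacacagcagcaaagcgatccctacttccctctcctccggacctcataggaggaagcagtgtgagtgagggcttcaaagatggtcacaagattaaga

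The TGACAG core was found within 100 bp of the summit in 9 of the 49 regions (18.4%), against 16.6% of all 70744 regions. These lay at Meis1, Meis3, Pbx3 and Pknox1, and Pknox1 held 5 of them, its promoter-TSS region included. Matches in the Pbx3 window at 122.3 kb and the Meis1 window at 93.9 kb are the capitals shown above. AGGTCA was found in 4 regions (8.16%, against 13.0% of all), at Meis3, Pbx4, Pknox1 and Tgif1. TGATTGAC, the site of PBX paired with MEIS or PKNOX, was found in 1 region (0.553% of all regions), at the Meis2 start site, and TGATTTAT, the site of PBX paired with HOX, in none (0.356% of all). The 4 motifs were searched on both strands, and none contains another, though TGATTGAC and TGACAG can overlap. A match describes these letters only.

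Meis1 (chr11:18880428-19018969, − strand) encodes a PBX partner that is active in haematopoietic stem cells. Its promoter-TSS region, with its midpoint 82 bp upstream of the start site, had fold enrichments of 12.1 and 8.47 in control and 11.4 and 8.57 in Cre+. The uncentred values of the genotypes overlapped. After log2 values were centred on each library's median, both control libraries lay above both others, with a log2 fold change of −0.40 ± 0.22 (SE, n = 2 libraries per genotype), which missed the threshold (limma, adjusted p = 0.304).

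Inside Meis1 a pair of strong intron regions was called in every library but control replicate 3. At 93.9 kb downstream of the start site the fold enrichment was 15.3 in control replicate 1 and 17.7 and 14.6 in Cre+. At 48.9 kb it was 12.3 in control replicate 1 and 17.9 and 14.7 in Cre+. Both were stronger than the promoter-TSS region in each of these libraries. Weaker regions with the same calls lay 1.5 kb upstream (7.92, 6.32 and 4.90) and 8.4 kb upstream (6.06, 10.1 and 5.91). An intron region at 61.1 kb had 5.72 in control replicate 1 and 6.02 in Cre+ replicate 1. The remaining 4 Meis1 regions were called in Cre+ replicate 2 alone, at fold enrichments of 3.35 to 4.76, and one of them was a second promoter-TSS region 823 bp upstream.

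Meis2 (chr2:115861264-116067444, − strand) encodes a further PBX partner and held 5 regions, with a gene body of 206.2 kb. None of its 3 start sites had a region in its own promoter-TSS window. The nearest region lay 253 bp downstream of the outermost start site in the 5′ UTR, just past the window, and also falls in the promoter-TSS of G630016G05Rik on the opposite strand. It had 4.52 in control replicate 1 and 5.41 in Cre+ replicate 1. Which of these genes it serves cannot be told apart. A region 208.6 kb from the nearest start site, beyond the 3′ end, had 3.70 in control replicate 1 and 7.14 and 4.5 in Cre+. The other 3 regions were called in 1 Cre+ library each, among them an intron region at 14.8 kb with 5.77 in replicate 2.

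Meis3 (chr7:16175395-16186510, + strand), which encodes another PBX partner, held 3 of the 7 regions called only in Cre+. They lay upstream at 7.7 kb (13.4 and 9.14), 14.5 kb (8.33 and 7.63) and 16.4 kb (5.62 and 4.41), the last in a coding exon of Slc8a2, a sodium/calcium exchanger gene. The strongest, at 7.7 kb, ranked at the 77.5th and 65.6th percentiles of the peaks of its libraries. Its window above holds 1 AGGTCA half-site, the only one among the 7 regions. The promoter-TSS region 95 bp upstream had 4.49 in control replicate 1 and 9.07 and 8.29 in Cre+, and was not called in control replicate 3. The single remaining Meis3 region, 17.1 kb downstream, was called in Cre+ replicate 1 alone (6.02).

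Among the PBX genes, which encode the partners of MEIS and PKNOX proteins, Pbx3 (chr2:34171457-34372045, − strand) had the strongest region. An intron region 11.8 kb downstream had 24.5 and 6.25 in control and 21.8 and 18.9 in Cre+. The control libraries thus stood at either end of the range, at the 98.4th and 35.0th percentiles of their own lists. The log2 fold change was 0.34 ± 0.29 (SE, limma, adjusted p = 0.496), and without control replicate 3 it was −0.50 (adjusted p = 0.210). The promoter-TSS region 903 bp upstream was more even, with 13.3 and 9.07 in control and 13.8 and 11.6 in Cre+. Its log2 fold change was −0.17 ± 0.22 (adjusted p = 0.680).

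Farther into Pbx3, 2 intron regions were called in all libraries but control replicate 3. At 122.3 kb the fold enrichment was 7.41 in control replicate 1 and 17.8 and 14.2 in Cre+. At 136.3 kb it was 10.6 in control replicate 1 and 11.6 and 11.0 in Cre+. That region was placed by the gene body alone, since the start site of C230014O12Rik is nearer. In the first region the value of the 1 control library lay under both Cre+ values by more than those differ, and in the second the 3 values lay close together. The difference between the 2 regions was not tested. A further intron region at 140.3 kb, placed in the same way as that at 136.3 kb, was called in Cre+ replicate 2 alone (3.55).

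Pbx4 (chr8:69832624-69872292, + strand) had 1 region called in all libraries, its promoter-TSS region 155 bp upstream. The fold enrichments were 17.3 and 6.80 in control and 14.2 and 11.8 in Cre+, which lay between the control values. The log2 fold change was −0.12 ± 0.22 (limma, adjusted p = 0.782). Its 3 intron regions were called in 1 Cre+ library each, at 3.87 to 6.02. Pbx2 (chr17:34592259-34597400, + strand) had a single weak region, in promoter-TSS 57 bp upstream, with 4.39 in control replicate 1 and 5.26 and 3.71 in Cre+.

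**Figure D2:**
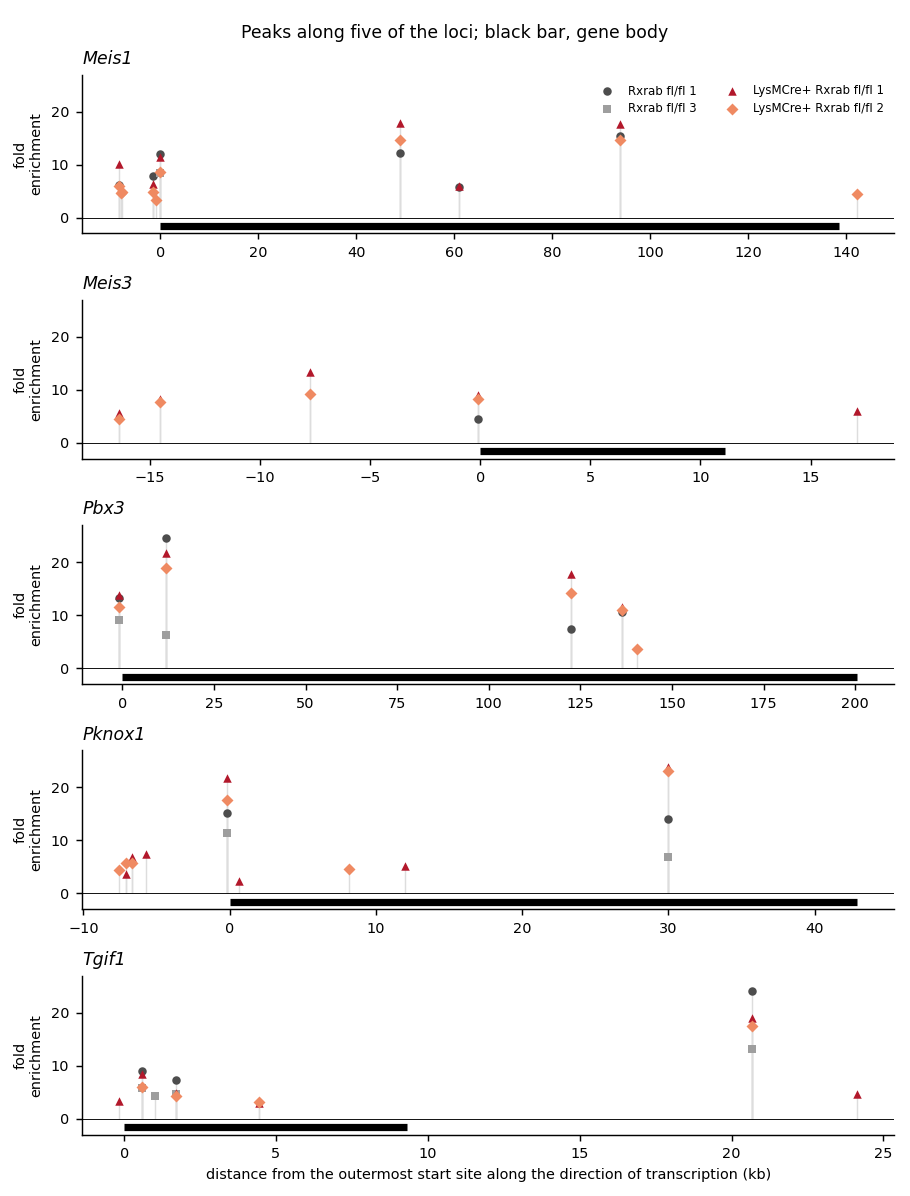
Fold enrichment of each called peak (y axis) against distance in kb of the region's midpoint from the outermost start site of the gene, in the direction of transcription (x axis), with the gene body as a black bar and 1 symbol for each library. Distances at Tgif1 run from its outermost start site here, and from the nearest of its 5 start sites in the text; the 3 upstream Meis3 peaks appear in the Cre+ symbols only.

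Pknox1 (chr17:31564773-31607693, + strand), whose protein competes with MEIS proteins for PBX, held the region with the largest difference among those shared by all libraries. This intron region, 30.0 kb downstream of the start site, had 14.0 and 6.84 in control and 23.9 and 23.2 in Cre+. Both Cre+ values lay above both control values, and the region ranked at the 98.2nd and 99.6th percentiles of the Cre+ lists and at the 77.4th and 44.3rd of the control lists. The log2 fold change was 0.90 ± 0.21 (SE), or 1.87-fold, and missed both the adjusted p and the fold threshold (limma, adjusted p = 0.0658). On the summit pileup the change was 0.90 (adjusted p = 0.0425), and with a mean-variance trend the adjusted p was 0.00549, but the log2 fold change stayed under 1. Without control replicate 3 it was 0.53. Without control replicate 1, which leaves only the shallowest library as control, it was 0.94. Leaving out Cre+ replicate 1 gave 1.05, and leaving out Cre+ replicate 2 gave 0.76. Without centring it was 1.27 (limma, adjusted p = 0.940). Its window above holds 1 AGGTCA half-site, written as TGACCT, and no TGACAG.

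The Pknox1 promoter-TSS region, 190 bp upstream and 1030 bp wide, was the widest of the 49. It had 15.1 and 11.3 in control and 21.8 and 17.6 in Cre+, and a log2 fold change of 0.21 ± 0.23 (limma, adjusted p = 0.602). Both Cre+ values lay above both control values before centring, and the genotypes overlapped after it. A cluster of 4 upstream regions lay between 5.7 and 7.6 kb from the start site, and no control library called any of them. Both Cre+ libraries called the ones at 7.1 kb (3.59 and 5.70) and 6.6 kb (6.95 and 5.81). The one at 5.7 kb was called in replicate 1 (7.45) and the one at 7.6 kb in replicate 2 (4.47). The other 3 Pknox1 regions were intron regions called in 1 Cre+ library each, at 2.32 to 5.10.

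Pknox2 (chr9:36890979-37147322, − strand), the related gene, had no peak in either control library over 256.3 kb. Both Cre+ libraries called an intron region 502 bp downstream of the start site, outside the promoter-TSS window, at 8.19 and 5.84. The other 2 regions, at 1.3 kb and 230.8 kb, were called in 1 Cre+ library each (3.36 and 5.16).

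Tgif1 (chr17:70844205-70853532, − strand) encodes the SMAD co-repressor and held 3 of the 9 regions shared by all libraries. The strongest lay in intergenic DNA past the 3′ end, 13.9 kb from the nearest start site. It had 24.1 and 13.2 in control and 18.9 and 17.4 in Cre+, at the 89.9th percentile or above in every list. The log2 fold change was −0.34 ± 0.21 (limma, adjusted p = 0.344) by fold enrichment and 0.10 (adjusted p = 0.777) by summit pileup.

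At the start sites of Tgif1, a promoter-TSS region 100 bp upstream of an inner start site had 7.35 and 4.67 in control and 4.93 and 4.37 in Cre+. Centred values of both control libraries lay above both others. The log2 fold change of −0.70 ± 0.21 was the lowest of the 9 and did not pass (limma, adjusted p = 0.0996). By summit pileup (105 and 20 tags in control, 82 and 71 in Cre+) it was −0.13 (adjusted p = 0.733). An intron region 574 bp downstream of another start site had 9.03 and 5.86 in control and 8.43 and 5.94 in Cre+. Its log2 fold change was −0.41 ± 0.22 (adjusted p = 0.287), and 0.14 (adjusted p = 0.675) by summit pileup.

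Of the other Tgif1 regions, an intron region 698 bp downstream of a start site was called only in both Cre+ libraries (2.93 and 3.12), at the 0.521st and 1.45th percentiles of their lists. A promoter-TSS region 774 bp upstream was called in control replicate 3 alone (4.24), the single region of the 49 with a peak there and in no other library. Cre+ replicate 1 alone called a promoter-TSS region 172 bp upstream (3.37) and a region 17.4 kb downstream (4.63).

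**Figure D3:**
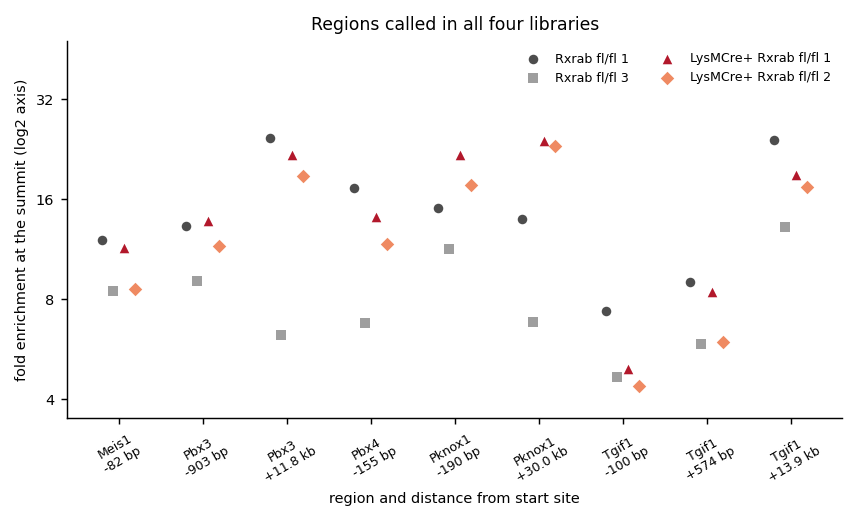
Fold enrichment at the summit (y axis, log2 scale) of the 9 regions called in all 4 libraries (x axis), with 1 symbol for each library and no averaging. At the Pknox1 intron region both Cre+ symbols (23.9 and 23.2) lie above both control symbols (14.0 and 6.84), and at the Pbx3 intron region the control symbols lie at either end (24.5 and 6.25).

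Over the 9 shared regions, none passed limma in either direction, for which the threshold was a log2 fold change past 1 at an adjusted p under 0.05 (0.0395% of the 15199 regions tested were higher in Cre+ and 0.0461% higher in control). At an unadjusted p under 0.05 there were 2 of the 9, against 22% of all, namely the Pknox1 intron and the Tgif1 promoter-TSS regions. Centred values of both Cre+ libraries lay above both others in 1 region (22.3% of all), and those of both control libraries in 4 (32.9% of all). These 4 were the Meis1 promoter-TSS region and the 3 of Tgif1, and none of the PBX or PKNOX regions. The median log2 fold change of the 9 was −0.17, beside −0.09 for all regions tested. By summit pileup it was 0.10, beside −0.10 for all, and all 3 Tgif1 values moved upward.

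**Figure D4:**
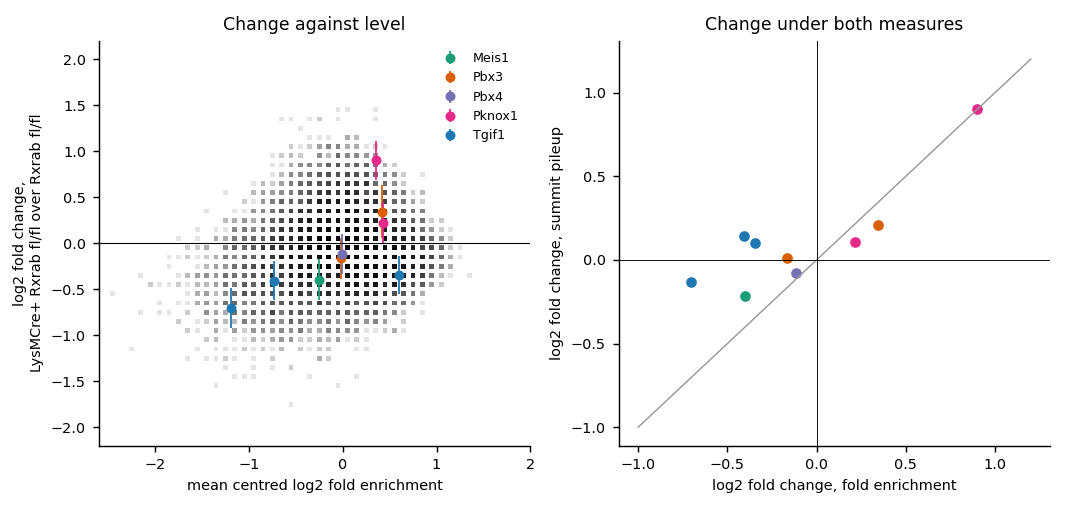
Left, log2 fold change in fold enrichment (y axis, Cre+ over control) against mean centred log2 fold enrichment (x axis), with the 9 shared regions in colour, bars of 1 SE, and all 15199 regions as grey squares, darker for more regions. Right, the log2 fold change by summit pileup against that by fold enrichment, with the line of equality; the Pknox1 intron region lies on the line at 0.90, and the 3 Tgif1 regions lie above it.

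Regions missing from a library were added in a fit over regions called in at least 2 libraries and in both genotypes, which tested 20 of the 49. Where control had 1 value, it was assumed to vary like the rest. The p values of such regions rest on the spread of other regions and, where both Cre+ libraries called the region, on the spread between those. They do not rest on control replicates. The median log2 fold change of all regions in that fit was 0.20. Set against control replicate 1 alone, the Meis3 promoter-TSS region was higher in Cre+ by 1.05 ± 0.31 (limma, adjusted p = 0.0429) and the Pbx3 intron region at 122.3 kb by 1.21 ± 0.31 (adjusted p = 0.0252), or by 0.86 and 1.01 over the median of all. These 2 calls stood beside 7.25% of all 35577 regions in that direction, and no member passed in the other, where 0.357% of all did. By summit pileup the same 2 passed, with 1.47 (adjusted p = 0.0176) at Meis3 and 1.25 (adjusted p = 0.0386) at Pbx3, beside 10.1% of all regions, and none passed the other way, where 2.59% did. With control replicate 3 left out of the fit entirely, which also changes the centring, the values were 0.72 (adjusted p = 0.101) and 0.87 (adjusted p = 0.0623), and neither passed.

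Depth bears on the 7 regions called only in Cre+. At the lowest background, the smallest pileup called was 8 tags in control replicate 1 and 6 in replicate 3. Scaled by the median pileup of shared regions, the Cre+ pileups of the 7 came to 14.7 to 77.6 tags at the depth of control replicate 1, above its smallest pileup for all 7, as for 99.1% of all such regions. At the depth of replicate 3 they came to 3.03 to 16 tags, and both values were above its smallest pileup for 2 of the 7, as for 21.5% of all such regions. These 2 were the Tgif1 region 698 bp downstream (10.1 and 16 tags) and the Pknox1 region at 6.6 kb (6.06 and 6.77 tags). Where the local background was higher, as at the Tgif1 region, more tags were needed. For the other 5, at least 1 scaled pileup was at or under the smallest called in control replicate 3. A missing peak in that library thus does not show that a region was closed, for the 5 or for the 2.

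Markers of small peritoneal macrophages (SPMs) or monocyte-derived cells were counted in the same way as the LPM markers. Promoters of these markers carried a peak for 2 and 1 of 8 genes in control and for 7 and 6 in Cre+, with Ccr2 in no library. Of all regions, 52.0% and 21.9% were called in the control libraries and 90.7% and 77.2% in the Cre+ libraries, so these counts also carry the difference in yield. Their summed fold enrichment, to which an uncalled promoter adds nothing, was 20.2 and 6.37 in control and 74.7 and 47.3 in Cre+. Irf4 was the 1 promoter of the list that could be tested. It had 15.9 and 6.37 in control and 18.1 and 12.8 in Cre+. Its log2 fold change was 0.23 ± 0.22 (limma, adjusted p = 0.556). The paper names every gene of this list except Cd226 as raised in expression in RXR-deficient LPMs. It also reports more accessible chromatin at several of them, from the ATAC-seq data used here. The list was thus not independent of the study's own result, and it cannot tell SPMs from LPMs that gained these genes. The part of either in the Meis3, Pknox1, Pknox2 and Tgif1 regions called only in Cre+ was not tested. In bulk ATAC-seq, more cells with an open site and more cuts for each cell cannot be told apart.

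Other genes of the pathway were counted by their promoter-TSS regions. Of 22 genes (8 HOX genes, Pbxip1, 4 Irx genes and 9 partners of TGIF1), 11 had a promoter-TSS region that was called in all libraries and tested. None of these passed limma in either direction. A further Irx gene had promoter-TSS peaks in every library, over 2 regions, and was not tested. Promoters of TGIF1 partners, the SMAD proteins and co-repressors through which it acts, were called for 8 of 9 genes in every library, and HOX promoters for 3 and 2 of 8 in control and 3 and 2 in Cre+. The median log2 fold change of the 8 tested TGIF1 partners was −0.42, with a range of −0.94 to −0.10. The −0.09 for all 15199 regions is not a like measure, since only 7137 of those are promoter-TSS regions. For the 6 tested LPM marker promoters the median was −0.27, with a range of −0.76 to 0.32. A median over all promoter-TSS regions is not given here, and the difference was not tested. No library called a promoter-TSS region at Hoxa7, Hoxa9, Hoxa10, Hoxb4, Hoxb6, Pbxip1, Irx1 or Ctbp1.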

How the data were processed

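The authors trimmed reads with cutadapt and aligned them to mm10 with Bowtie2. Duplicates were removed by the authors, as were alignments to mitochondrial DNA and to X and Y. MACS2 2.1.1 then gave peaks for each library by itself, at a q value of 0.05 with tags extended to 200 bp, from which blacklisted ones were taken out. The deposited lists give for each peak the fold enrichment at the summit, a ratio to the local background, the −log10 of its p value and q value, and the summit offset. Read counts were not used here, so the edgeR test of the authors was not repeated. Fold enrichment depends on the local background as well as on tags, and it is compressed at low depth.

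From these lists the tag pileup and its background were solved with a pseudocount of 1. Peaks sharing at least 1 bp were merged, the highest fold enrichment of a library was kept, and midpoints were placed on RefSeq curated transcripts of GRCm38 (43783 transcripts of 24963 genes). Where all 4 libraries had called a region, its log2 fold enrichment less the median of the library was compared between genotypes. The test was limma 3.58.1 under R 4.3.3 (eBayes, Benjamini-Hochberg adjustment over all regions tested). The script was also run on simulated data. Of 200 regions changed by a log2 of 2 it recovered 145, with 1 false call among 14999 unchanged regions. A region that did not pass may therefore still differ. Counts of regions were compared by an exact permutation test. No read depth is given by the lists, so limits rest on solved pileups. Sequences were read with pysam 0.24.0.

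The genes named are all 9 members, with their promoter-TSS regions, strongest region (by mean log2 fold enrichment in the libraries that called it) and regions called in all libraries or in 1 genotype alone. Members of the other pathway list were named where a promoter-TSS region passed limma or none was called. The members, lists and motifs were chosen with earlier results of these data known. Alternatives were another q value, equal numbers of peaks, summit windows, the nearest TSS alone, another promoter window, summit pileup, other normalizations, a mean-variance trend, regions called in at least 2 libraries, and each library left out.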

Additional observations from a re-analysis of the deposited data

How the results depend on the processing

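No paired analysis was possible because the genotypes share 1 replicate number only. The count of regions called only in both Cre+ libraries went from 7 to 1 when each library gave the same number of peaks, the one left being the Pbx3 intron region at 122.3 kb (7.82% of all regions). That of regions called only in both control libraries went from 0 to 1 (the Tgif1 promoter-TSS region 119 bp upstream, 7.22% of all regions). With summit windows it was 2 (0.329% of all regions), because the Pknox1 and Pbx3 promoter-TSS regions each split by summit position. The other parts of these regions, at Pknox1 (21.8 and 17.6) and Pbx3 (13.8 and 11.6), were called only in both Cre+ libraries. The Cre+ count with summit windows was 8 (21.3% of all regions). The Pbx3 and Tgif1 regions named here were singled out after their values were seen. The promoter-TSS share was 46.2% of 13 regions with equal numbers of peaks. The share of all regions at that setting is not given here, so the value cannot be read as particular to these genes. With 1 library left out, a call was required in every remaining library of 1 genotype and in none of the other. The Cre+ count was then 16 (49.2% of all regions) without control replicate 1 and 7 (22.9%) without control replicate 3. It was 17 (36.4%) without Cre+ replicate 1 and 18 (44.3%) without Cre+ replicate 2, where a single Cre+ library remained. The control count was 1 (0.217% of all regions) without control replicate 1. It was 0 with any other library left out, where 0.0820% to 1.78% of all regions had the pattern. The count by limma in Cre+ went from 0 to 2 with regions called in at least 2 libraries, by fold enrichment and by summit pileup, a combination added after seeing the data. The median log2 fold change of −0.17 became 0.10 with the pileup (−0.10 for all regions) and 0.20 without centring (0.28 for all regions). Other settings changed the set of regions as well. The median was 0.19 over the 20 regions of the fit with at least 2 libraries (0.20 for all regions). It was −0.35 over 7 regions with summit windows (−0.09 for all regions). With 1 library left out it ranged from −0.36 to −0.12 (−0.15 to −0.07 for all regions). These fits held 18 regions without control replicate 3 and 9 otherwise.

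Single values changed sign under the summit pileup at the Pbx3 promoter-TSS region (0.013), the Tgif1 regions at 13.9 kb (0.10) and 574 bp (0.14) and the Meis1 region at 61.1 kb (−0.33). Without centring, signs changed at the promoter-TSS regions of Pbx3 (0.20) and Pbx4 (0.25) and at the Tgif1 region at 13.9 kb (0.024). With 1 library left out, the ranges were −0.65 to 0.083 at the Pbx4 promoter-TSS region, −0.051 to 0.23 at that of Pknox1 and −0.50 to 0.86 at the Pbx3 region at 11.8 kb. Without control replicate 3 the signs also changed at the Pbx2 promoter-TSS region (−0.22), the Pbx3 region at 136.3 kb (−0.14) and the Meis1 region at 93.9 kb (−0.16). None of these changes was past the limma threshold on either side, and the cause was not tested. Of the other comparisons of single values, 93 kept their direction and their side of the threshold, and 2, at Meis3 and Pbx3, lost the call without control replicate 3.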
